A study of Mus musculus with 24 samples.

Results

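Transcripts of 7 genes that draw T cells into tumours or receive that signal were followed through mouse tumours with and without the checkpoint kinase Chek2. The genes were listed by symbol and matched through the annotation to their Ensembl identifiers, 7 of the 55335 genes measured. They are Cxcl9 (ENSMUSG00000029417), Cxcl10 (ENSMUSG00000034855), Cxcl16 (ENSMUSG00000018920), Ccl3 (ENSMUSG00000000982), Ccl4 (ENSMUSG00000018930), Cxcr3 (ENSMUSG00000050232) and Cxcr6 (ENSMUSG00000048521).

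Chemokines are small secreted proteins that guide leukocytes along a gradient towards the cells that make them. CXCL9 and CXCL10 are made by macrophages, dendritic cells and tumour cells that sense interferon gamma, and both bind CXCR3, the receptor carried by activated CD8 and Th1 cells and by NK cells. CXCL16 is held on the surface of macrophages and dendritic cells until proteases shed it, and it binds CXCR6, which marks effector and tissue-resident T cells. CCL3 and CCL4 are released by activated T cells, NK cells and macrophages.

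The tumours were of 2 mouse lines, MC38, a colon carcinoma, and B16, a melanoma. In each line there were 4 groups of 3 libraries: CHEK2 knock-out (KO) tumours given anti-PD-1, KO tumours given PBS, parental CHEK2-WT (WT) tumours given anti-PD-1, and WT tumours given PBS, 24 libraries in all. Anti-PD-1 is an antibody that blocks an inhibitory receptor of T cells. The labels give neither the number of KO clones, the dose and time of treatment, nor whether libraries came from separate animals, so p-values below measure the spread between these libraries. Values are FPKM, fragments scaled by transcript length and library size, as deposited. Libraries of a group are numbered 1 to 3 in their order of deposition, which pairs nothing across groups.

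Chek2 itself, the targeted gene, had 1.92 to 3.37 FPKM in the 6 MC38 KO libraries, against 4.61 to 6.14 FPKM in the 6 MC38 WT libraries. In B16 it had 5.64 to 6.75 FPKM in the 6 KO libraries, against 7.17 to 9.29 FPKM in the 6 WT libraries. The KO libraries were below the WT libraries in both lines, by a smaller margin in B16, where the test under PBS did not pass (-0.37, limma adjusted p = 0.106). The B16 difference passed under anti-PD-1 (-0.31, limma adjusted p = 0.0154) and averaged over treatments (-0.34, limma adjusted p = 0.00285). Summed FPKM per library ran from 310868 to 398474, and the 3 B16 KO anti-PD-1 libraries, from 375193 to 398474, stood above all others, whose highest was 344059. Those 3 libraries also held 1633, 144 and 8.79 summed FPKM of 5 skeletal muscle genes, against 1.16 to 2.80 in the other B16 libraries. In MC38 these muscle genes summed to 1.05 to 390.4 FPKM, with both highest values in libraries given anti-PD-1. The part of that muscle RNA and of the higher sums in the results was not tested. The 7 melanocyte genes separated the labelled lines, with 4885 to 6285 summed FPKM in B16 libraries and 1.01 to 4.03 in MC38 libraries. The epithelial genes listed as markers of MC38 did not, with 1.18 to 47.9 summed FPKM in MC38 and 1.58 to 8.80 in B16 libraries.

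The promoters of the 2 CXCR3 ligands are shown first, because Cxcl9 showed the largest difference of the 7 genes in MC38 on the log2(FPKM + 1) scale and parted from Cxcl10 in B16. Both genes lie on the minus strand of chromosome 5 in mm10, Cxcl9 at chr5:92321347-92328079 and Cxcl10 at chr5:92346638-92348889, and the 250 bases before each start are written from RefSeq on GRCm38.p6, chr5:92328080-92328329 for Cxcl9 and chr5:92348890-92349139 for Cxcl10. Capitals mark matches to any of 5 motifs searched on both strands.
Cxcl9: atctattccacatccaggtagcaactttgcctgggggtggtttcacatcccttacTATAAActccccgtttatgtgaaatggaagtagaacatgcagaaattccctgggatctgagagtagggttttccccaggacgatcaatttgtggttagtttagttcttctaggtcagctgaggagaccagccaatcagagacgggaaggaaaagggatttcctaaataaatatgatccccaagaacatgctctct
Cxcl10: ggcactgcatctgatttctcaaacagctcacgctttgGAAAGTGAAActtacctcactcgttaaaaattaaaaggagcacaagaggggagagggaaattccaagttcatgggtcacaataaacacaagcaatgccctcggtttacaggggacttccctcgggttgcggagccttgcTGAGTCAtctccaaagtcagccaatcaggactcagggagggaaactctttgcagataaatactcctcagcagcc
The Cxcl10 window held the interferon-stimulated response element core GAAANNGAAA at 213 to 204 bases before the start, a word found in 2.98% of 32851 promoters of the same length. It also held the AP-1 word TGANTCA at 74 to 68 bases before the start, found in 6.75% of promoters. Of the 5 words searched, the Cxcl9 window held only TATAAA, at 195 to 190 bases before the start, found in 12.4% of promoters. Neither window matched the GAS word TTCNNNGAA, found in 7.02%, or the NF-kB word GGGNNTTTCC, found in 1.41%. The windows of Cxcr6, Ccl3 and Cxcr3 held none of the 5 words, and these 5 genes were those of the 7 matched in the promoter table. The matches do not overlap each other, and a match is a description of letters only. Only these exact words were searched, so looser forms of them, such as other NF-kB words, and other elements were not counted.

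In MC38 tumours under PBS, 6 of the 7 genes were lower in KO than in WT tumours, and anti-PD-1 was followed in KO tumours by higher levels of 6 of the 7. The KO PBS group was the lowest of the 4 MC38 groups by mean for all 7 genes. KO anti-PD-1 tumours overlapped both WT groups for Cxcl9, Cxcr3 and Cxcr6, and for Cxcl10 overlapped WT anti-PD-1 tumours but lay below every WT PBS library. Of all 14209 genes tested, 11.6% fell in KO PBS against WT PBS tumours and 6.12% rose in KO anti-PD-1 against KO PBS tumours. The same 3 KO PBS libraries enter both comparisons, so the fall and the rise are not independent. The 95% intervals and p-values rest on the spread within 12 libraries of the line, and in 1 fit of all 24 libraries 3 of the 6 falls, those of Cxcl9, Cxcl16 and Ccl3, were not called, nor were the rises of Cxcl9 (limma adjusted p = 0.245) and Ccl3 (0.0524). With only the 6 libraries compared in the fit, the rise of Cxcl16 was not called either (limma adjusted p = 0.0504).

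**Figure D1:**
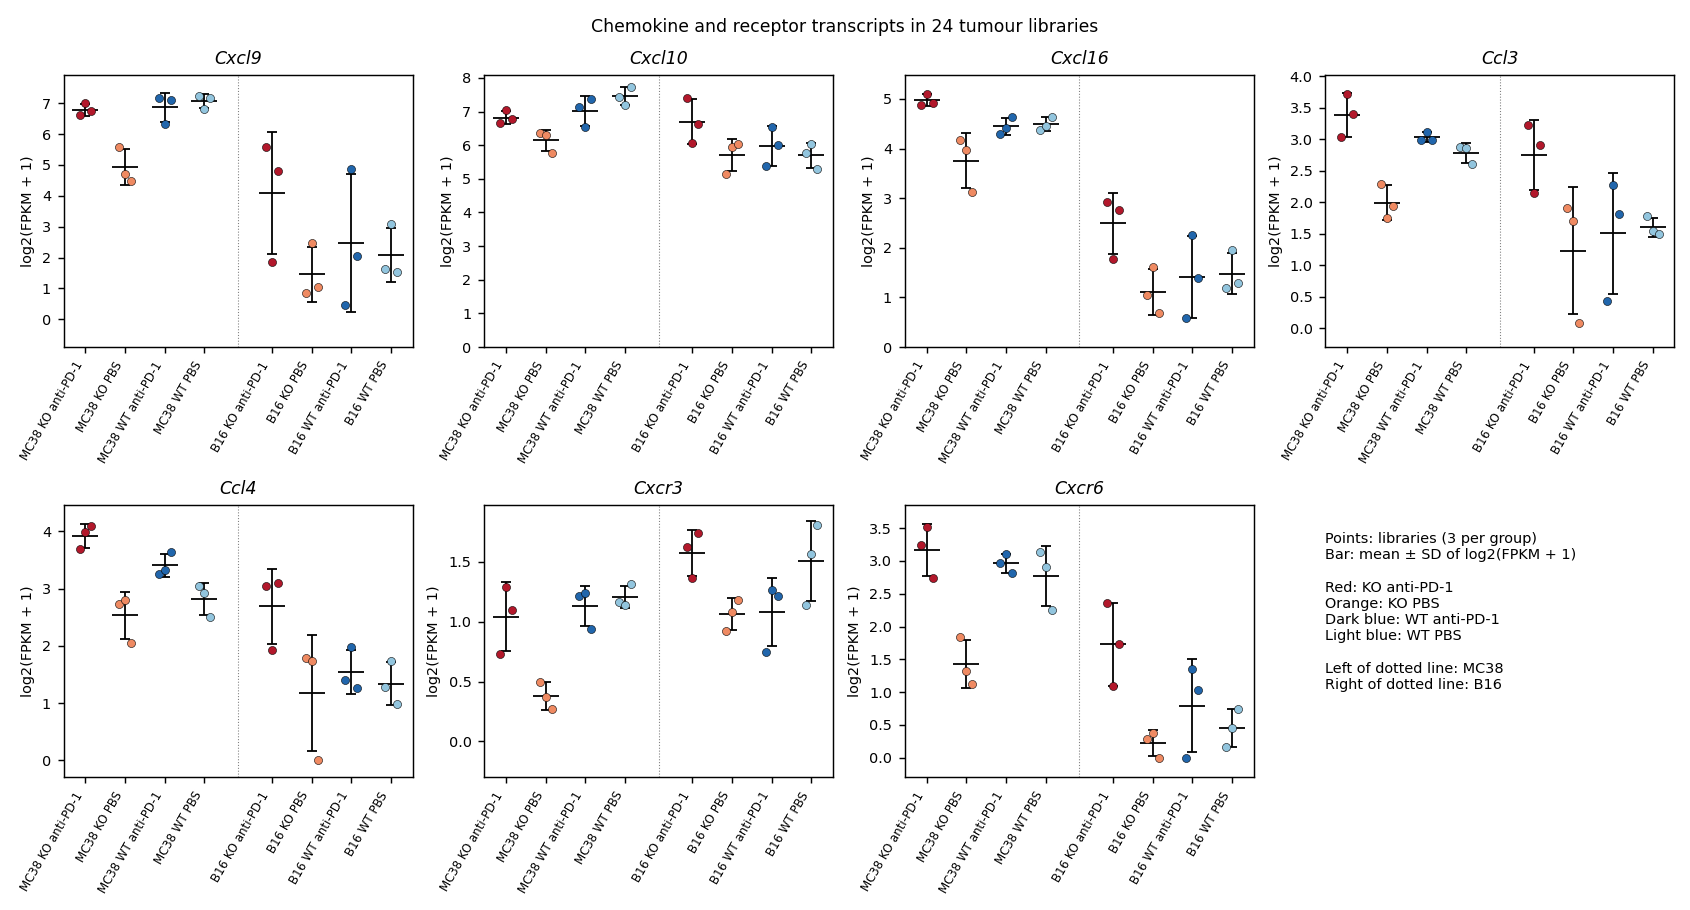
Level of each gene as log2(FPKM + 1), with 1 point per library and bars for mean ± SD of 3 libraries, MC38 groups left and B16 groups right of the dotted line. In MC38 the KO PBS points (orange) lie below every other MC38 library for all genes but Ccl4, and in B16 the KO anti-PD-1 points (dark red) lie highest by mean for all 7 genes.

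Cxcl9 had 47.0, 25.1 and 21.3 FPKM in MC38 KO PBS tumours, against 149.7, 110.5 and 143 FPKM in WT PBS tumours. The 2 groups did not overlap, as held for 6 of the 7 genes, against 19.5% of all genes tested that were lower without overlap. Mean Cxcl9 was 31.1 ± 13.8 FPKM in KO PBS and 134 ± 20.9 FPKM in WT PBS tumours (SD, n = 3 each), a log2 difference of -2.14 ± 0.29 (SE, limma's moderated test with Benjamini-Hochberg adjustment, adjusted p = 0.000752). In bulk tumour RNA such a difference can stand for fewer cells of a type or for less RNA per cell, and these cannot be told apart.

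With anti-PD-1, KO tumours had 96.7, 127 and 107 FPKM of Cxcl9, above all 3 KO PBS libraries, as held for all 7 genes against 14.6% of genes tested. The log2 difference between KO anti-PD-1 and KO PBS tumours was 1.87 ± 0.29 (SE, limma adjusted p = 0.00357). WT tumours given anti-PD-1 had 143, 79.6 and 138 FPKM of Cxcl9, which overlapped both WT PBS and KO anti-PD-1 tumours. The difference in Cxcl9 between KO and WT tumours under anti-PD-1 was -0.08, with a 95% interval of -0.71 to 0.55. The response to anti-PD-1 differed between genotypes for Cxcl9 by 2.06 ± 0.40 on the log2 scale (SE, limma adjusted p = 0.0332), a call held in 3 of the 12 fits that each left out 1 library, with adjusted p-values of up to 0.0853.

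Cxcl10, the other CXCR3 ligand measured here, showed a smaller difference. It had 81.1, 77.1 and 53.9 FPKM in MC38 KO PBS tumours, against 172, 147 and 212 FPKM in WT PBS tumours. The groups did not overlap, and the log2 difference was -1.32 ± 0.23 (SE, limma adjusted p = 0.00275). KO anti-PD-1 tumours had 99.7, 129.8 and 108 FPKM of Cxcl10, above the KO PBS tumours without overlap, but the difference of 0.68 ± 0.23 did not pass (SE, limma adjusted p = 0.0930). WT anti-PD-1 tumours had 140.3, 91.1 and 166 FPKM of Cxcl10. Exons of Cxcl10 share 133 of their 2252 bases with Art3, a gene on the opposite strand, and the strand of the libraries is not stated. Art3 had 0.14 to 1.65 FPKM in MC38 libraries and 8.95 to 16.1 FPKM in B16 libraries.

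The balance of the 2 CXCR3 ligands can be read within a library. In MC38 the ratio of Cxcl9 to Cxcl10 FPKM was 0.97 to 0.99 in KO anti-PD-1 tumours and 0.33 to 0.58 in KO PBS tumours. It was 0.83 to 1.02 in WT anti-PD-1 and 0.67 to 0.87 in WT PBS tumours, so KO PBS tumours lay below the other 3 groups. Averaged over treatments the KO minus WT difference in this log2 ratio was -0.37 and did not pass an exact two-sided permutation test of libraries within treatments (p = 0.135, adjusted p = 0.4275 over 19 ratio tests).

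Cxcl16, the ligand of CXCR6, lies at chr11:70453983-70459984 and was also lower in KO than in WT tumours under PBS. It had 17.0, 14.6 and 7.77 FPKM in MC38 KO PBS tumours, against 19.7, 21.1 and 24.04 FPKM in WT PBS tumours. The groups did not overlap and the log2 difference was -0.74 ± 0.22 (SE, limma adjusted p = 0.0311). This call was lost in 5 of 21 alternatives, with limma adjusted p of up to 0.169, among them the fits without WT PBS library 2 or 3. KO anti-PD-1 tumours had 28.6, 33.4 and 29.5 FPKM of Cxcl16, above every other MC38 library, since the highest of the remaining libraries had 24.04 FPKM. Against KO PBS tumours this was a rise of 1.22 ± 0.22 on the log2 scale (SE, limma adjusted p = 0.00646). Against WT anti-PD-1 tumours, which had 18.7, 20.3 and 23.8 FPKM, the difference was 0.53 ± 0.22 and did not pass (SE, limma adjusted p = 0.141). Cxcl16 shares 552 of its 3021 exon bases with Zmynd15 on the opposite strand, which had 3.09 to 15.3 FPKM in MC38 libraries and rose by 1.23 ± 0.24 in the same comparison of KO anti-PD-1 with KO PBS tumours (SE, limma adjusted p = 0.0102).

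The ratios of both CXCR3 ligands to Cxcl16 were lower in KO than in WT tumours of MC38. Under anti-PD-1 Cxcl9 and Cxcl10 themselves overlapped between KO and WT tumours. Mean Cxcl16 there was 30.5 FPKM in KO and 20.9 FPKM in WT tumours, a difference that did not pass. Zmynd15, which shares exon bases with Cxcl16, differed by 0.80 there (limma adjusted p = 0.0546), and its part in these ratios was not tested. The ratio of Cxcl9 to Cxcl16 FPKM was 3.38 to 3.80 in KO anti-PD-1 and 1.72 to 2.76 in KO PBS tumours, against 3.93 to 7.65 in WT anti-PD-1 and 5.25 to 7.58 in WT PBS tumours. KO libraries lay below WT libraries under both treatments, with an averaged log2 difference of -1.01 (exact permutation p = 0.005, the smallest this design can give, adjusted p = 0.0475). The Cxcl10 to Cxcl16 ratio was 3.49 to 3.88 in KO anti-PD-1 and 4.77 to 6.93 in KO PBS tumours, against 4.49 to 7.52 in WT anti-PD-1 and 6.97 to 8.81 in WT PBS tumours. Its averaged difference was -0.64 (exact permutation p = 0.005, adjusted p = 0.0475). The 2 ratios share Cxcl16 as denominator, so they are not independent. Each adjusted p-value passed only because both ratios had the smallest p. In B16 the same ratios differed by 0.13 and -0.10 with exact permutation p-values of 0.865 and 0.820.

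**Figure D2:**
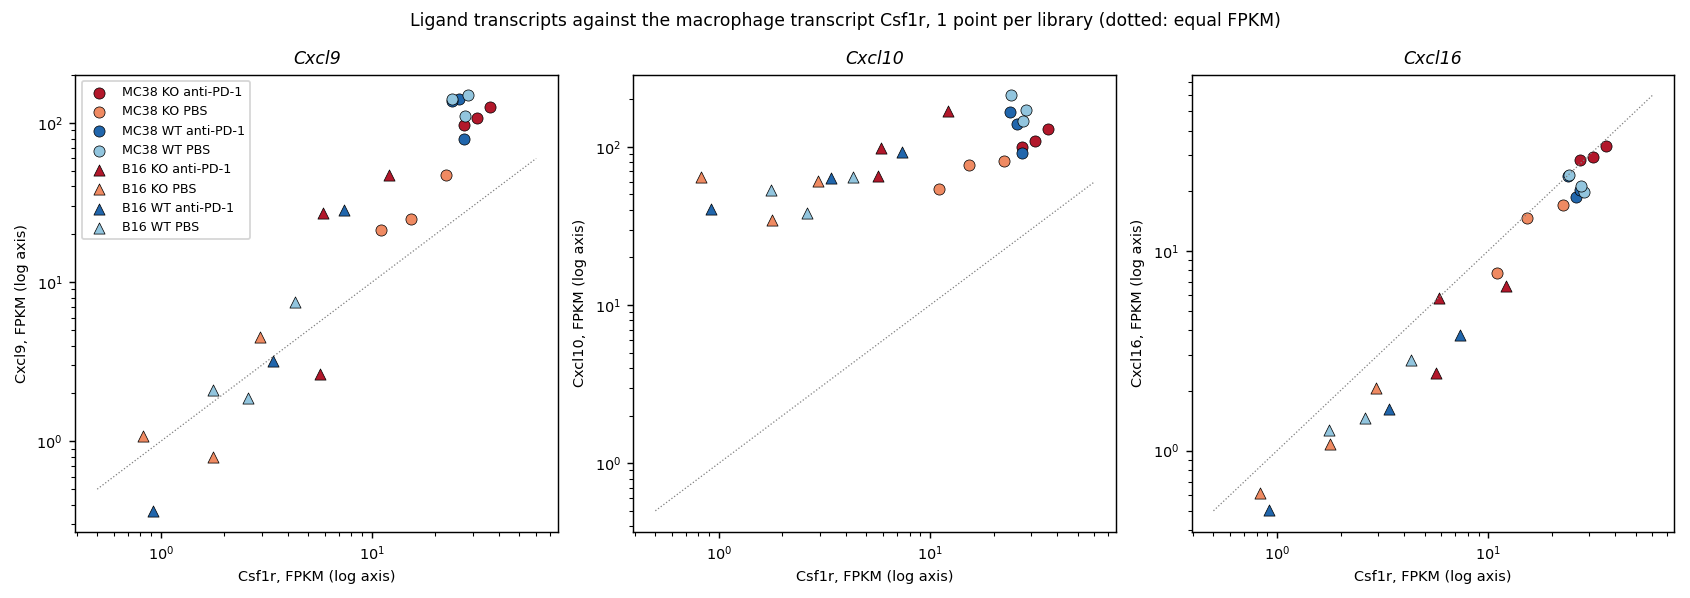
FPKM of Cxcl9, Cxcl10 and Cxcl16 against FPKM of Csf1r on log axes, 1 point per library, with the dotted line at equal FPKM. Cxcl16 runs beside the line in all 24 libraries, at 0.43 to 1.05 times Csf1r, while Cxcl10 stays at 34.5 FPKM or more in B16 libraries, whose Csf1r goes down to 0.83 FPKM.

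Csf1r, the receptor for the growth factor CSF1 and a macrophage marker, gave a second scale. The Cxcl16 to Csf1r ratio was 0.92 to 1.05 in MC38 KO anti-PD-1 and 0.70 to 0.95 in KO PBS tumours, against 0.72 to 0.99 in WT anti-PD-1 and 0.69 to 1.00 in WT PBS tumours. These ranges overlapped and the averaged KO minus WT difference was 0.12 (exact permutation p = 0.420, adjusted p = 0.887). The Cxcl9 to Csf1r ratio was 3.42 to 3.54 in KO anti-PD-1 and 1.64 to 2.09 in KO PBS tumours, against 2.91 to 5.76 in WT anti-PD-1 and 4.00 to 5.93 in WT PBS tumours. Its averaged difference was -0.89, and it missed the threshold after adjustment (exact permutation p = 0.0200, adjusted p = 0.0950). All 13 macrophage and monocyte genes listed together summed to 535 to 1340.3 FPKM in KO PBS tumours, against 1725 to 2024 FPKM in WT PBS tumours, and their part in the ligand results was not tested beyond these ratios.

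The CC chemokines Ccl3 (chr11:83647844-83649355) and Ccl4 (chr11:83662584-83664683) are neighbours on opposite strands, and 1 of the 2 was called between KO and WT tumours under PBS. Ccl3 had 3.91, 2.37 and 2.83 FPKM in MC38 KO PBS tumours, against 6.38, 6.24 and 5.09 FPKM in WT PBS tumours. The groups did not overlap and the log2 difference was -0.79 ± 0.17 (SE, limma adjusted p = 0.00880). Ccl4 had 5.66, 5.99 and 3.14 FPKM in KO PBS tumours, against 7.22, 6.57 and 4.66 FPKM in WT PBS tumours. These groups overlapped, and the difference of -0.29, with a 95% interval of -0.75 to 0.17, did not pass (limma adjusted p = 0.348). Ccl4 was the 1 gene of the 7 with no call in this comparison.

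Both Ccl3 and Ccl4 rose with anti-PD-1 in MC38 KO tumours. Ccl3 had 7.19, 12.2 and 9.56 FPKM in KO anti-PD-1 tumours, 1.39 ± 0.17 above KO PBS tumours on the log2 scale (SE, limma adjusted p = 0.00152). Ccl4 had 11.9, 14.8 and 16.04 FPKM there, also a difference of 1.39 ± 0.21 (SE, limma adjusted p = 0.00328). WT anti-PD-1 tumours had 6.93, 7.70 and 6.89 FPKM of Ccl3 and 8.51, 9.01 and 11.5 FPKM of Ccl4, above the WT PBS libraries without overlap for both genes, against 9.94% of all genes tested. Neither passed in WT tumours, with adjusted p-values of 0.565 for Ccl3 and 0.256 for Ccl4 by limma. Limma gave no call at all between WT anti-PD-1 and WT PBS tumours of MC38 (0 of 14209 genes), and unadjusted p-values fell below 0.05 for 1953 genes. Ccl4 of KO anti-PD-1 tumours also lay above WT anti-PD-1 tumours without overlap, as did Cxcl16. These were the 2 of the 7 genes without overlap there, against 34.1% of all genes without overlap, and none of the 7 genes passed in that comparison, in which 12.1% of genes were called.

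For Ccl3 the response to anti-PD-1 differed between genotypes by 1.14 ± 0.24 (SE, limma adjusted p = 0.0409), and the call held in 2 of the 12 fits with 1 library left out. With Cxcl9 this made 2 of the 7 genes higher in the interaction, against 1.81% of all genes. Cxcl16, at 1.27 ± 0.31, and Cxcr6, at 1.55 ± 0.37, lay just outside the threshold (SE, limma adjusted p = 0.0555 and 0.0533).

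Cxcr3, the receptor for CXCL9 and CXCL10, lies at chrX:101731535-101734269 and was a rare transcript. It had 0.41, 0.30 and 0.20 FPKM in MC38 KO PBS tumours, against 1.24, 1.20 and 1.48 FPKM in WT PBS tumours. The groups did not overlap, and mean FPKM was 4.30 times as high in WT PBS as in KO PBS tumours. On the log2(FPKM + 1) scale, which understates changes of rare transcripts, the difference was -0.82 ± 0.16 (SE, limma adjusted p = 0.00428). Cxcr3 reached 1 FPKM in 7 of the 12 MC38 libraries, none of them KO PBS, and passed the filter on low values through them. KO anti-PD-1 tumours had 0.66, 1.45 and 1.14 FPKM of Cxcr3, a rise of 0.66 ± 0.16 over KO PBS tumours (SE, limma adjusted p = 0.0238). This rise lost its call without KO PBS library 2 or 3, or KO anti-PD-1 library 2 or 3. WT anti-PD-1 tumours had 1.32, 1.36 and 0.91 FPKM.

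Cxcr6, the receptor for CXCL16, had 2.58, 1.49 and 1.19 FPKM in MC38 KO PBS tumours, against 7.83, 6.52 and 3.78 FPKM in WT PBS tumours. The groups did not overlap and the log2 difference was -1.34 ± 0.26 (SE, limma adjusted p = 0.00489). KO anti-PD-1 tumours had 8.45, 10.5 and 5.71 FPKM of Cxcr6, above every KO PBS library. The log2 difference between KO anti-PD-1 and KO PBS tumours was 1.74 ± 0.26 (SE, limma adjusted p = 0.00307). WT anti-PD-1 tumours had 6.84, 7.59 and 6.05 FPKM. Cxcr6, at chr9:123806475-123811760, lies within the span of Fyco1 on the opposite strand and shares 0 of its 1931 exon bases with it.

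**Figure D3:**
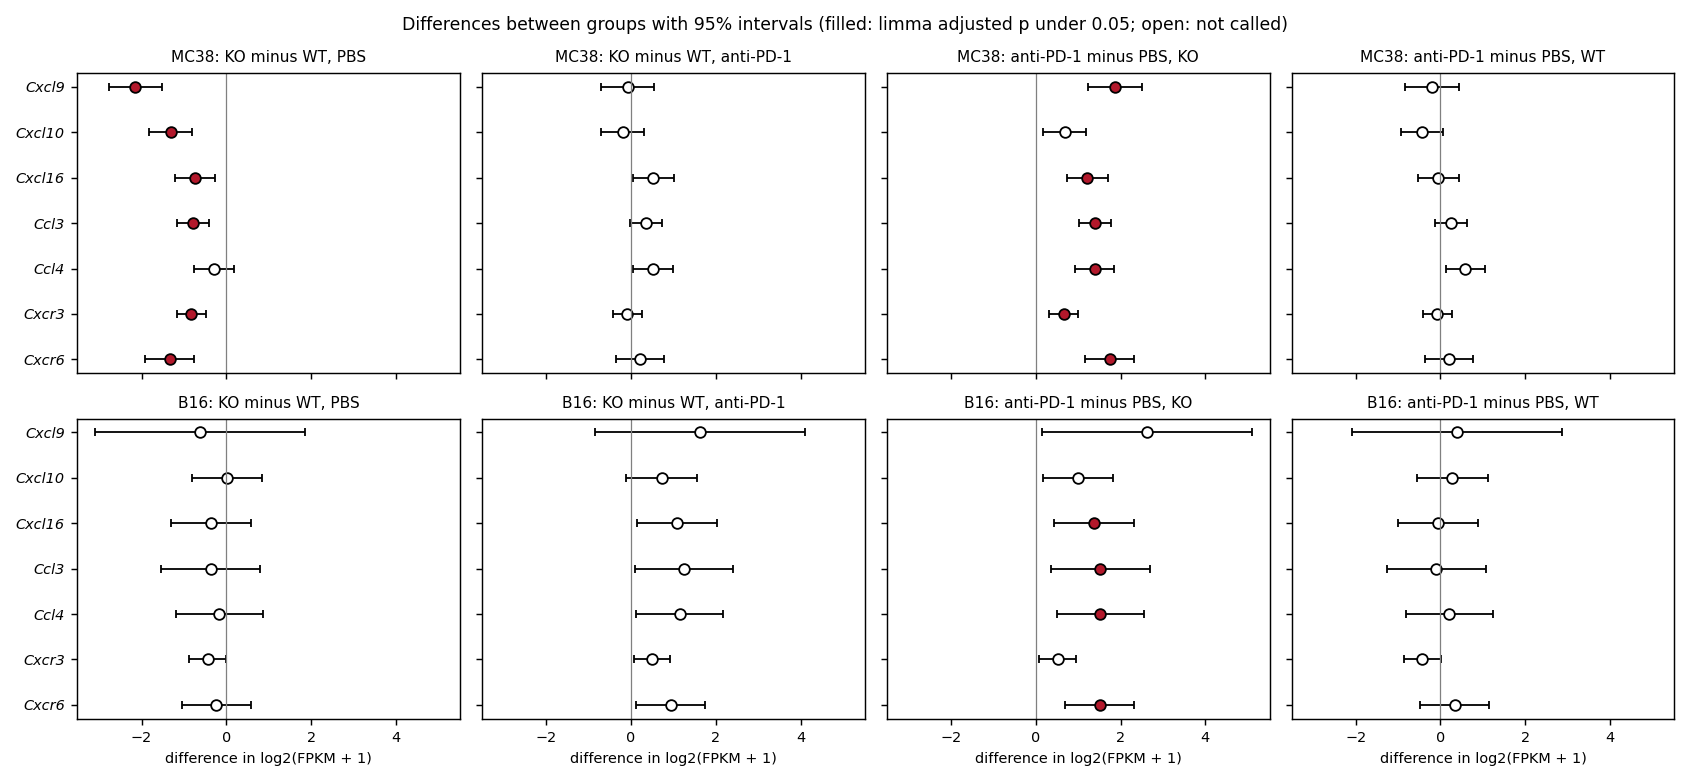
Differences in log2(FPKM + 1) between groups for the 7 genes, with 95% intervals, filled where limma's adjusted p was under 0.05, MC38 in the upper row and B16 in the lower. The filled points are 6 in MC38 for KO minus WT under PBS, 6 in MC38 and 4 in B16 for anti-PD-1 minus PBS in KO, and 0 in the other 5 panels.

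Within MC38 the receptor levels moved with T cell and NK cell transcripts. The 15 T cell markers summed to 51.7 to 80.9 FPKM in KO anti-PD-1 and 7.13 to 11.9 FPKM in KO PBS tumours, against 55.8 to 65.7 FPKM in WT anti-PD-1 and 49.01 to 70.6 FPKM in WT PBS tumours. Of the 13 markers tested, 12 were lower in KO PBS than in WT PBS tumours, against 11.6% of all genes. All 13 were higher in KO anti-PD-1 than in KO PBS tumours, against 6.12% of all genes. The 7 NK cell markers summed to 17.6 to 26.1 FPKM in KO anti-PD-1 and 2.59 to 6.04 FPKM in KO PBS tumours, against 18.8 to 26.9 FPKM in WT anti-PD-1 and 22.3 to 23.4 FPKM in WT PBS tumours. The part of both marker lists in the receptor results was not tested beyond the ratio to Cd3e, a subunit of the T cell receptor complex. The Cxcr6 to Cd3e ratio was 3.74 to 6.01 in KO anti-PD-1, 4.18 to 5.57 in WT anti-PD-1 and 3.82 to 4.46 in WT PBS tumours. In KO PBS tumours it was 5.33 and 4.32 in libraries 1 and 3 and 44.4 in library 2, where Cd3e had 0.03 FPKM. The Cxcr3 to Cd3e ratio was likewise 8.84 in that library, against 0.85 and 0.75 in KO PBS libraries 1 and 3. The averaged KO minus WT difference was 0.33 for the Cxcr6 to Cd3e ratio and 0.08 for the Cxcr3 to Cd3e ratio, with exact permutation p-values of 0.320 and 0.775. Both averages include that library, and both changed sign with a ratio pseudocount of 1, so their direction is not settled.

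Averaged over treatments, 4 of the 7 genes were lower in KO than in WT tumours of MC38, against 27.4% of all genes called in either direction. The differences were -1.11 ± 0.20 for Cxcl9, -0.76 ± 0.16 for Cxcl10, -0.46 ± 0.11 for Cxcr3 and -0.57 ± 0.18 for Cxcr6 (SE, limma adjusted p of 0.00244, 0.00568, 0.0108 and 0.0406). The Cxcr6 call was kept in 3 of the 12 fits with 1 library left out. Under anti-PD-1 alone the KO minus WT differences were -0.08 for Cxcl9, -0.20 for Cxcl10, -0.09 for Cxcr3 and 0.21 for Cxcr6, none of them called. In the fit of all 24 libraries the averaged Cxcl9 difference was not called (limma adjusted p = 0.230). Cxcl16, Ccl3 and Ccl4 showed averaged differences of -0.11, -0.22 and 0.11 that did not pass.

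In B16 tumours the median over 12 libraries was lower than in MC38 for 6 of the 7 genes, all but Cxcr3. No difference between KO and WT tumours under PBS passed the test for any of the 7 genes, where 0.470% of 13627 genes were called, and the groups overlapped for all 7, against 21.2% of genes without overlap. After anti-PD-1 the KO tumours had the highest mean of all 4 B16 groups for each gene, and 4 of the 7, Cxcl16, Ccl3, Ccl4 and Cxcr6, rose over KO PBS tumours. Of these, Cxcr6 entered the comparison only through libraries given anti-PD-1, the treatment with its higher values, so its call is not independent support. In that comparison 18.9% of all genes rose and 43.9% were called in either direction, so a large share of the transcriptome moved with these genes. Summed T cell markers were 12.8 to 45.1 FPKM in B16 KO anti-PD-1 tumours, against 0.89 to 2.75 FPKM in KO PBS tumours. Summed NK cell markers were 2.39 to 13.5 FPKM in KO anti-PD-1 tumours, against 0.21 to 0.87 FPKM in KO PBS tumours. Summed macrophage and monocyte markers were 517 to 1358 FPKM in KO anti-PD-1 tumours, against 103 to 261 FPKM in KO PBS tumours. The 2 groups did not overlap for any of these 3 sums, and their part in the rises was not tested.

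Cxcl9 had 47.2, 2.63 and 27.1 FPKM in B16 KO anti-PD-1 tumours, against 0.80, 4.53 and 1.08 FPKM in KO PBS tumours. Library 2 of the first group lay within the range of the second, and the log2 difference of 2.63 ± 1.13 did not pass (SE, limma adjusted p = 0.0787). WT tumours had 0.37, 28.3 and 3.18 FPKM with anti-PD-1 and 2.10, 7.52 and 1.88 FPKM with PBS. WT anti-PD-1 libraries 2 and 3 lay within the range of the KO anti-PD-1 tumours.

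Cxcl10 had 168, 65.8 and 98.9 FPKM in B16 KO anti-PD-1 tumours, against 34.5, 60.4 and 64.6 FPKM in KO PBS tumours. The groups did not overlap, though only by 65.8 against 64.6 FPKM, and the difference of 0.99 ± 0.38 lay just outside the threshold (SE, limma adjusted p = 0.0531). WT tumours had 40.6, 92.4 and 63.5 FPKM with anti-PD-1 and 53.2, 64.1 and 38.5 FPKM with PBS. Mean Cxcl10 of the B16 groups other than KO anti-PD-1 was 51.9 to 65.5 FPKM, against 70.7 FPKM in MC38 KO PBS tumours, while mean Cxcl9 of those B16 groups was 2.14 to 10.6 FPKM. The Cxcl9 to Cxcl10 ratio in B16 ran from 0.0090 to 0.31, below every MC38 library.

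Cxcl16 had 6.63, 2.44 and 5.77 FPKM in B16 KO anti-PD-1 tumours, against 1.08, 2.05 and 0.61 FPKM in KO PBS tumours, a difference of 1.37 ± 0.43 on the log2 scale (SE, limma adjusted p = 0.0244). Ccl3 had 8.32, 3.41 and 6.5 FPKM in the first group, against 2.77, 2.27 and 0.05 FPKM in the second, a difference of 1.52 ± 0.53 (SE, limma adjusted p = 0.0372). Ccl4 had 7.22, 2.82 and 7.56 FPKM in KO anti-PD-1 tumours, against 2.44, 2.34 and 0 FPKM in KO PBS tumours, a difference of 1.52 ± 0.47 (SE, limma adjusted p = 0.0227). The KO anti-PD-1 libraries lay above the KO PBS libraries for all 3 ligands, as for 6 of the 7 genes against 24.2% of all genes. In KO PBS library 3 both Ccl3 and Ccl4 were nearly absent, and without that library neither they nor Cxcl16 were called. The Cxcl16 call was kept in 8 of the 12 fits with 1 library left out, and the Ccl3 and Ccl4 calls in 9 each. Over all 21 alternatives the call was lost in 5 for Cxcl16, 7 for Ccl3 and 6 for Ccl4.

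WT tumours of B16 had 0.50, 3.79 and 1.62 FPKM of Cxcl16 with anti-PD-1 and 1.27, 2.86 and 1.45 FPKM with PBS. Ccl3 had 0.35, 3.82 and 2.53 FPKM with anti-PD-1 and 2.42, 1.90 and 1.82 FPKM with PBS in WT tumours, and Ccl4 had 1.63, 2.93 and 1.40 FPKM with anti-PD-1 and 1.44, 2.33 and 0.98 FPKM with PBS. The WT groups overlapped for all 7 genes, while 6.54% of all genes did not overlap. For WT anti-PD-1 against WT PBS tumours of B16, limma gave no call (0 of 13627 genes), 281 genes had unadjusted p-values below 0.05, and the 7 adjusted p-values were 1.

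Cxcr6 had 4.13, 1.14 and 2.32 FPKM in B16 KO anti-PD-1 tumours, against 0.22, 0.30 and 0 FPKM in KO PBS tumours. The difference of 1.505 ± 0.37 was called (SE, limma adjusted p = 0.00771) and was the 1 call of the 4 kept in all 12 fits with 1 library left out. WT tumours had 0, 1.54 and 1.05 FPKM with anti-PD-1 and 0.12, 0.37 and 0.68 FPKM with PBS. Cxcr6 reached 1 FPKM in 5 of the 12 B16 libraries, all given anti-PD-1, and passed the filter on low values through them. Without B16 KO anti-PD-1 library 1, which held the most muscle RNA, or without library 3 of that group, 1 of the 7 genes stayed called, and without library 2 all 7 were.

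Averaged over treatments, no difference between KO and WT tumours of B16 passed the test for any of the 7 genes, against 26.5% of all genes called. Under anti-PD-1 alone, KO and WT tumours of B16 differed by 0.50 to 1.63 on the log2 scale over the 7 genes, always higher in KO. None passed, with limma adjusted p-values of 0.0625 to 0.266, although 40.8% of all genes did. Cxcr3 was the 1 gene without overlap in this comparison, against 19.2% of genes higher without overlap.

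For Cxcr3 in B16 limma called a difference between the responses of KO and WT tumours to anti-PD-1, a call that did not hold under all settings. It had 2.07, 1.57 and 2.35 FPKM in KO anti-PD-1 tumours, 0.89, 1.12 and 1.27 FPKM in KO PBS tumours, 0.68, 1.41 and 1.32 FPKM in WT anti-PD-1 tumours and 1.21, 1.96 and 2.49 FPKM in WT PBS tumours. With anti-PD-1 it was higher in KO tumours, by 0.51, and lower in WT tumours, by -0.43, differences that did not pass on their own (limma adjusted p = 0.0530 and 1). The difference between these responses was 0.94 ± 0.28 (SE, limma adjusted p = 0.0329), the only call among the 7 genes in the B16 interaction, against 8.90% of all genes higher. The call was kept in 5 of the 12 fits with 1 library left out. It was lost with no filter on low values and with protein-coding genes rescaled to equal sums.

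Cxcr3 was also measured in B16 libraries with few T cell transcripts. In 8 of the 12 B16 libraries Cd3e was under 0.1 FPKM, and there Cxcr3 had 0.68 to 2.49 FPKM while Cxcr6 had 0 to 1.05 FPKM. T cell transcripts were not absent there, since the 15 T cell markers summed to 0.89 to 6.05 FPKM in those 8 libraries. Of other T cell markers, Cd3d and Cd3g were under 0.1 FPKM in 5 B16 libraries each, and Trac in 2. MC38 KO PBS tumours, with 7.13 to 11.9 summed FPKM of T cell markers, had 0.20 to 0.41 FPKM of Cxcr3. B16 PBS tumours, with 0.89 to 2.75 FPKM of those markers in KO and 2.48 to 6.05 FPKM in WT tumours, had 0.89 to 1.27 and 1.21 to 2.49 FPKM of Cxcr3. The NK cell markers summed to 0.21 to 0.87 FPKM in B16 KO PBS tumours and 0.26 to 1.52 FPKM in B16 WT PBS tumours, and Ncr1, an NK cell receptor, was listed at 0 in 7 of the 12 B16 libraries. Which cells carried the Cxcr3 reads of B16 was not tested.

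**Figure D4:**
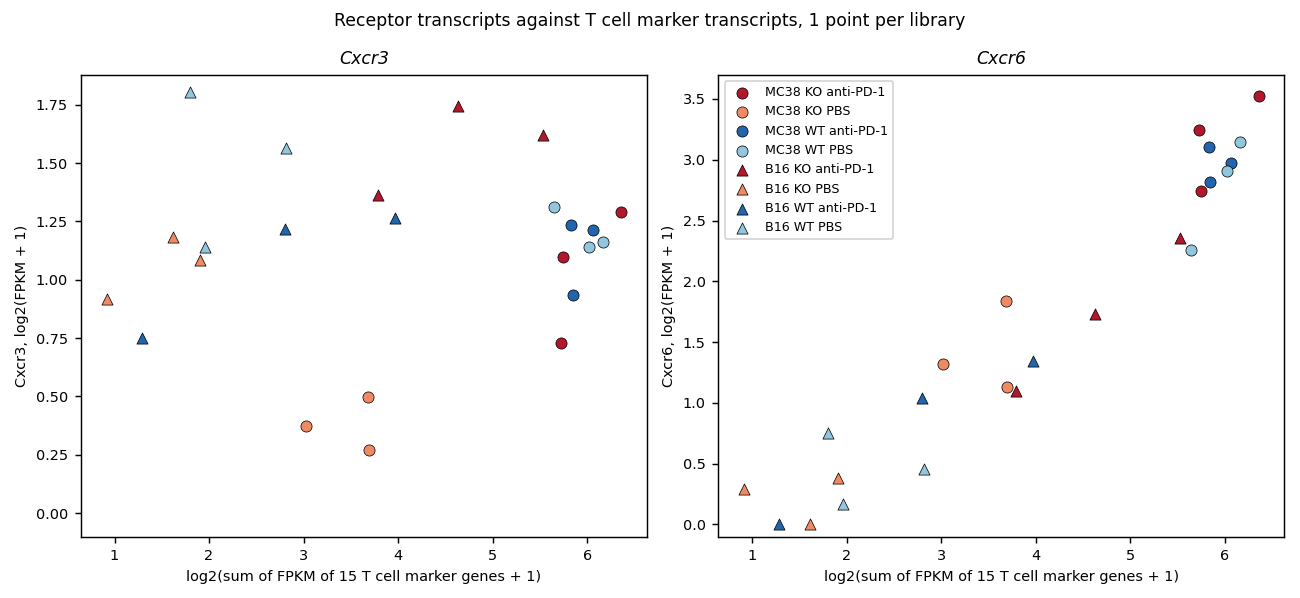
Cxcr3 (left) and Cxcr6 (right) as log2(FPKM + 1) against the log2 of the summed FPKM of 15 T cell marker genes plus 1, 1 point per library, circles for MC38 and triangles for B16. Cxcr6 climbs with the markers across both lines, and Cxcr3 of B16 tumours lies at 0.68 to 2.49 FPKM where the markers sum to under 3 FPKM.

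Across lines, the median over 12 libraries in MC38 was 37.5 times that in B16 for Cxcl9, 11.9 times for Cxcr6 and 11.2 times for Cxcl16. It was 3.37 times for Ccl4, 2.68 times for Ccl3, 1.87 times for Cxcl10 and 0.86 times for Cxcr3. Cxcl16 was the 1 gene whose lowest MC38 library, at 7.77 FPKM, lay above its highest B16 library, at 6.63 FPKM. Whether the authors scaled both lines together is not stated, and line and tumour type cannot be told apart here.

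The averaged KO effect differed between lines for 3 of the 7 genes, each lower in MC38 than in B16, against 11.6% of 15655 genes. The MC38 minus B16 differences were -1.13 ± 0.33 for Cxcl10, -0.48 ± 0.17 for Cxcr3 and -0.92 ± 0.33 for Cxcr6 (SE, limma adjusted p of 0.0152, 0.0408 and 0.0427). The Cxcl10 call was kept in all 24 fits with 1 library left out, the Cxcr3 call in 10 and the Cxcr6 call in 8. For Cxcl9 the difference was larger, -1.61, but its 95% interval of -3.47 to 0.24 included 0. The response of KO tumours to anti-PD-1 was not shown to differ between lines for any of the 7 genes, and 26.0% of all genes were called. The 95% intervals were -1.30 to 0.67 for Cxcl10 and -0.75 to 1.23 for Cxcr6. The sign for Cxcr6 depended on the pseudocount, with -1.11 at a pseudocount of 0.1. Mean Cxcr6 FPKM in KO tumours was 14.4 times as high with anti-PD-1 as with PBS in B16 and 4.69 times in MC38. The difference between lines in the genotype by treatment interaction was not called for any of the 7, against 11.8% of all genes.

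The order of group means shows how the lines interleave. For Cxcl9, in rising order, the B16 groups came first, with KO PBS lowest at 2.14 FPKM and KO anti-PD-1 highest at 25.6 FPKM, each overlapping the next. MC38 KO PBS tumours followed at 31.1 FPKM and did not overlap the group above them. That group was MC38 KO anti-PD-1 at 110.3 FPKM, then came WT anti-PD-1 at 120.0 FPKM and WT PBS at 134 FPKM, each overlapping the next. For Cxcl10 all 8 groups overlapped their neighbours in the order, with B16 WT PBS lowest at 51.9 FPKM and MC38 WT PBS highest at 177 FPKM. For Cxcr3 the highest mean was that of B16 KO anti-PD-1 tumours, at 2.00 ± 0.39 FPKM, and the lowest that of MC38 KO PBS tumours, at 0.30 ± 0.10 FPKM (SD, n = 3 each).

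Genes whose pattern was most like each member were sought among 11591 protein-coding genes over the 12 MC38 libraries, as a description of libraries that share 4 groups. Cxcl9 was most like Ifng, with a Pearson correlation of 0.98, then Pla2g16 and Serpina3f. Ifng encodes interferon gamma, the inducer of CXCL9. Cxcl10 was most like Gbp10, Gbp4 and Ubd, at 0.97 to 0.98. The Gbp genes encode guanylate-binding proteins induced by interferons, and their near-identical family members can share reads. Cxcl16 was most like Fcer1g, Ctsb and Slamf7, Ccl3 most like Dapp1, Scarf1 and Smpdl3a, and Ccl4 most like, among others, Tmem273 and C5ar1. Cxcr3 was most like Arhgap9, Sept1 and Pbxip1. Cxcr6 was most like Smpdl3a, Klrc1 and Cd8a, the last of which encodes the CD8 co-receptor.

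Over the 12 B16 libraries and 11142 genes, Cxcl9 was most like Gbp2, Tgtp1 and Iigp1, at 0.98 to 0.99, all of them interferon-induced GTPase genes. Cxcl10 was most like Lyn, Phf11b and Myd88, Cxcl16 most like, among others, Gpr65 and Ms4a7, and Cxcr6 most like Rac2, Fermt3 and Fcgr1. Ccl3 was most like Armc5, Fmnl1 and Bcl2a1b, and Ccl4 most like Tcirg1, Coro1b and Gtpbp6. For Cxcr3 the 3 most alike genes were Fuca1, Shkbp1 and Dcxr, at 0.89, a lower likeness than for any other member. Among the 7 genes themselves, Cxcl9 and Cxcl16 correlated at 0.96 in B16 and 0.78 in MC38, and at 0.97 and 0.59 once group means were removed.

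Other genes of the pathway were counted by lists. The list of related ligands held Cxcl11, Ccl5, Ccl7 and Ccl8, of which Ccl7 and Ccl8 are better known as ligands of other receptors on monocytes and Th2 cells. All 4 were lower in MC38 KO PBS than in WT PBS tumours, with a median of -1.83 against 0.01 over all genes, of which 11.6% were called lower. The log2 differences were -2.31 for Ccl8, -2.29 for Ccl5, -1.37 for Ccl7 and -0.63 for Cxcl11 (limma adjusted p of 0.00386, 0.000116, 0.00172 and 0.0141). All 4 rose in KO anti-PD-1 against KO PBS tumours, where 6.12% of all genes rose, by 1.68, 1.82, 1.04 and 0.67 in the same order (limma adjusted p of 0.0331, 0.00109, 0.0128 and 0.0220). In B16, 3 of 3 tested rose in KO tumours with anti-PD-1, against 18.9% of all genes.

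Of 6 tested chemokines that draw other T cells or dendritic cells, 2 were lower in MC38 KO PBS than in WT PBS tumours, against 11.6% of all genes. Xcl1, which draws cross-presenting dendritic cells, fell by 1.64, and Ccl22, a ligand of CCR4, fell by 0.84 (limma adjusted p = 0.00266 and 0.0270). None of the 6 was called with anti-PD-1 in MC38 KO tumours, where the differences were 0.56 for Xcl1 and 0.01 for Ccl22. In B16, 1 of 2 tested rose in KO tumours with anti-PD-1, against 18.9% of all genes.

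Of 8 other chemokine receptors tested in MC38, 6 were lower in KO PBS than in WT PBS tumours, against 11.6% of all genes. The largest differences were -1.49 for Ccr2, a monocyte receptor, -0.87 for Ackr3, a scavenger of CXCL12, and -0.80 for Cx3cr1 (limma adjusted p of 0.00342, 0.00512 and 0.0311). With anti-PD-1, 3 of the 8 rose in KO tumours, against 6.12% of all genes, among them Xcr1 by 1.21 and Cxcr4 by 0.95 (limma adjusted p of 0.00189 and 0.00863). In B16, 4 of 6 tested receptors rose in KO tumours with anti-PD-1, against 18.9% of all genes. Of 3 proteases in MC38, 1 was higher in KO tumours under PBS, against 11.9% of all genes higher: Adam17, which can shed CXCL16, was higher by 0.37 in MC38 KO PBS than in WT PBS tumours (limma adjusted p = 0.0422).

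Of 11 genes that induce the CXCR3 ligands, 4 were lower in MC38 KO PBS than in WT PBS tumours and 4 were higher in KO anti-PD-1 than in KO PBS tumours, against 11.6% of all genes lower and 6.12% higher. The differences in the first comparison included -1.65 for Ifng, -0.74 for Tnf and -0.29 for Ifngr2 (limma adjusted p of 0.00208, 0.0168 and 0.0181). Ifng rose by 1.72, Tnf by 1.48 and Irf8 by 1.06 in the second (limma adjusted p of 0.00368, 0.00166 and 0.0237). In B16 KO tumours given anti-PD-1, 4 of 10 tested inducers rose and 1 fell, against 43.9% of all genes called in either direction. Ifng was listed at 0 in 8 of the 12 B16 libraries, while Cxcl10 was at 34.5 FPKM or more in all of them.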

How the data were processed

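RNA of 24 mouse tumour libraries was measured, grouped by the labels' condition field. The deposited values are FPKM for 55335 Ensembl genes, 1 column per library, and the submitters' processing notes name FastQC, STAR 2.5, Cuffnorm, DESeq and mm10 without role or order. Strand, read length, annotation and scaling across libraries are not given in the sources used here. The FPKM values carry no counts or depth, so no counting interval is given. Symbols, positions and exon overlaps came from GENCODE M21 (55154 identifiers matched, 181 did not), and promoters from RefSeq on GRCm38.p6.

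Values were analysed as log2(FPKM + 1) with limma 3.58.1 in R 4.3.3, for genes reaching 1 FPKM in 3 or more of a line's 12 libraries, with 1 mean per group, a mean-variance trend and Benjamini-Hochberg adjustment over all genes tested. Calls had an adjusted p under 0.05. All 24 libraries entered 1 fit, with that filter over 24 libraries, for comparisons of lines only. Standard errors come from these fits. Ratios of FPKM were tested as log2 ratios with a pseudocount of 0.1 by exact two-sided permutation of libraries within treatments. 3 libraries against 3 cannot give a p below 0.1, so p-values of ratios are given only for differences averaged over treatments. In B16 no ratio to Cd3e was tested, since Cd3e was at or near 0. All 7 genes were named in every comparison. Of each pathway list, called genes were named in the 2 MC38 comparisons with 6 called members each, up to 4 by size of difference. The 3 most alike genes were taken by Pearson correlation. The genes and lists were chosen with earlier results of these data known. Alternatives were other pseudocounts, no filter, quantile normalization, protein-coding genes rescaled to equal sums, no trend, other choices of libraries in a fit, and each library left out. Steps were tested on simulated data. Protein sequences were not used here. Some genes of the pathway lists and of the most alike genes are not reported here by name.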

Additional observations from a re-analysis of the deposited data

Results flagged for a closer look

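Differences between responses that passed limma's test are given here as values. In MC38 the response to anti-PD-1 was more positive in KO than in WT tumours for Cxcl9, by 2.06 on the log2 scale, and for Ccl3, by 1.14. In B16 it was more positive in KO than in WT tumours for Cxcr3, by 0.94. Of the 12 fits of a line with 1 library left out, the call held in 3 for Cxcl9, 2 for Ccl3 and 5 for Cxcr3. The KO minus WT difference, averaged over treatments, was lower in MC38 than in B16 for Cxcl10, by -1.13, for Cxcr3, by -0.48, and for Cxcr6, by -0.92.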

How the results depend on the processing

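No paired analysis was possible because the labels carry no replicate numbers. The FPKM values give no depth, so precision is limited by 3 libraries a group. Counts below are of the 7 genes called and other values are log2 differences. The cause of each change was not tested.

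With a pseudocount of 0.1, B16 KO anti-PD-1 against KO PBS had 2 calls, the MC38 minus B16 difference in the anti-PD-1 effect of KO tumours was -1.11 for Cxcr6, and the difference between lines in the interaction was 0.16 for Cxcr3 and -0.94 for Cxcr6. With a pseudocount of 0.5 the Cxcr6 difference in the anti-PD-1 effect was -0.11. With no filter on low values the calls were 0 in the MC38 interaction, 1 in B16 KO anti-PD-1 against KO PBS, 0 in the B16 interaction and 1 for the averaged KO effect between lines. With quantile normalization 3 genes were called in B16 KO against WT under anti-PD-1, and the Cxcl9 interaction differed between lines by 0.025.

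With protein-coding genes rescaled to equal sums, the MC38 interaction had 4 calls, the B16 interaction 0 and the averaged KO effect between lines 1. There Cxcl10 in B16 KO against WT under PBS was -0.019, Cxcr3 in B16 KO against WT averaged over treatments was -0.061, and the anti-PD-1 effect in KO differed between lines by 0.0097 for Ccl3 and 0.014 for Ccl4. With all 24 libraries in 1 fit, the calls were 3 in MC38 KO against WT under PBS, 2 averaged over treatments and 0 in the interaction, and 5 in B16 KO against WT under anti-PD-1, 7 in KO anti-PD-1 against KO PBS and 3 in the interaction. Fits of only the 6 libraries compared called 1 gene in KO against WT under anti-PD-1 in MC38 and 1 in B16.

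Of 1330 alternatives for 95 ratio values, 1317 counted as unchanged, 6 as moved and 7 as changed in sign. For averaged differences at other pseudocounts, unchanged meant the same sign and the same side of the 0.05 threshold in the permutation test. All other values, among them those with 1 library left out, were only compared with their spread. Changes of sign were not counted for them. With a ratio pseudocount of 0.01, Ccl3/Csf1r in B16 was -0.10. With a ratio pseudocount of 1, the averaged differences were 0.0078 for Cxcl10/Cxcl16 in B16, 0.052 for Ccl4/Ccl3 in B16, -0.11 for Cxcr6/Cxcr3, -0.016 for Cxcr3/Cd3e, -0.13 for Cxcr6/Cd3e and 0.0072 for Ccl3/Csf1r in MC38.

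Leaving out 1 library at a time, calls ranged from 0 to 1 for MC38 KO against WT under anti-PD-1, with Cxcl9 from -0.35 to 0.066 and Cxcr3 from -0.21 to 0.067. In MC38 WT anti-PD-1 against WT PBS, Cxcl9 ran from -0.34 to 0.074, Cxcl16 from -0.14 to 0.028, Cxcr3 from -0.13 to 0.019 and Cxcr6 from -0.062 to 0.38. Cxcl16 averaged over treatments in MC38 ran from -0.21 to 0.051. The MC38 interaction had 0 to 4 calls, 0 without KO anti-PD-1 library 2 or 3, KO PBS library 2, WT anti-PD-1 library 1 or 2, or WT PBS library 1 or 2. It had 4 calls without KO PBS library 1.

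In B16, KO against WT under PBS ran from -0.18 to 0.29 for Cxcl10, -0.71 to 0.21 for Ccl3 and -0.47 to 0.42 for Ccl4, and under anti-PD-1 had 0 to 4 calls, 4 without WT anti-PD-1 library 2. KO anti-PD-1 against KO PBS had 1 to 7 calls. WT anti-PD-1 against WT PBS ran from -0.83 to 1.39 for Cxcl9, -0.00089 to 0.58 for Cxcl10, -0.49 to 0.35 for Cxcl16, -0.48 to 0.44 for Ccl3 and -0.0069 to 0.41 for Ccl4. Averaged over treatments there were 0 to 1 calls, with Cxcl9 from -0.0025 to 1.10 and Cxcr3 from -0.063 to 0.10, and the interaction had 0 to 2.

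Between lines, the averaged KO effect had 1 to 4 calls. The anti-PD-1 effect in KO ran from -0.64 to 0.035 for Cxcl10, -0.51 to 0.065 for Cxcl16, -0.48 to 0.44 for Ccl3, -0.50 to 0.46 for Ccl4 and -0.079 to 0.55 for Cxcr6. The interaction ran from -1.40 to 0.82 for Cxcl9, -0.59 to 0.24 for Cxcl16, -0.86 to 0.099 for Ccl3 and -0.88 to 0.087 for Ccl4.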
